A study of Mus musculus with 8 samples.

Results

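The insulin-like growth factor (IGF) binding protein genes Igfbp2, Igfbp3, Igfbp4, Igfbp5, Igfbp6 and Igfbp7, the ligand gene Igf1 and the receptor genes Igf1r and Igf2r were followed in mouse cells on day 8 of reprogramming. They were taken by symbol from a table of read counts per gene. All 9 symbols were found among its 26930 genes, and 8 of them passed the filter on low counts; Igf1 did not. The cells were mouse embryonic fibroblasts carrying the reprogramming factors Oct4, Klf4, Sox2 and Myc (OKSM), grown in the medium that the labels call AGi. The 4 groups were K36M cells with TGF-beta1 (2.5 ng/ml), K36M cells with Repsox (250 nM), WT cells with TGF-beta1 (2.5 ng/ml) and WT cells with Repsox (250 nM), with 2 libraries each. Repsox is an inhibitor of the type I TGF-beta receptor kinase, so the media compared were one that stimulates and one that blocks the TGF-beta pathway. K36M denotes a lysine-to-methionine histone H3 mutation, and the sample descriptions of the WT libraries carry the word H3. How the mutant histone was introduced, from which promoter, in how many clones, and whether the WT cells carried a wild-type histone construct are not stated in the labels. No group without either agent was used here. Whether the 2 libraries of a group are separate cultures is not stated either, so a p-value reflects the variation seen between libraries, which may be technical.

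IGF1 and IGF2 are secreted growth factors that signal through the tyrosine kinase receptor encoded by Igf1r. The receptor encoded by Igf2r, which also carries proteins tagged with mannose 6-phosphate, takes IGF2 into the cell for degradation. The binding proteins are secreted; Igfbp2 to Igfbp6 hold IGFs with high affinity and limit or deliver them to receptors, while the Igfbp7 product binds them weakly. Several of them are well-known products of fibroblasts.

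Library totals lay between 10928302 and 15594217 counts, and counts of the libraries of a group differed by more than sampling noise (chi-square per degree of freedom 2.70 to 9.09). Levels are given as CPM, counts per 1000000 of the library, with library sizes scaled by the trimmed mean of M-values (TMM). A call is an adjusted p under 0.05 in the edgeR quasi-likelihood F test (Benjamini-Hochberg over 15789 genes), and differences are log2 fold changes ± standard error. Markers of several cell types moved with the groups. The 12 fibroblast markers, whose sum is carried mostly by Vim, Col1a1, Col1a2 and Fbn1, summed to 950 to 972 CPM in K36M with TGF-beta, 215 to 249 CPM in K36M with Repsox, 11573 to 12946 CPM in WT with TGF-beta and 3443 to 3792 CPM in WT with Repsox; only Lum was at 0, in WT with TGF-beta. Whether the list moved as one depended on the comparison. K36M against WT under Repsox called all 12 of its genes lower, and TGF-beta against Repsox in K36M called 9 higher and 1 lower. TGF-beta against Repsox in WT called 6 higher and 5 lower, and K36M against WT under TGF-beta called 2 higher and 7 lower. Thy1 averaged 37.3 CPM in K36M with TGF-beta, 14.3 CPM in K36M with Repsox, 28.5 CPM in WT with TGF-beta and 551 CPM in WT with Repsox, and Pdgfra 2.18, 10.3, 3.22 and 54.8 CPM in that order. In this order of groups, the 6 smooth muscle markers summed to 334 to 344, 44.6 to 45.6, 1560 to 1684 and 62.3 to 65.6 CPM. TGF-beta against Repsox in WT called 5 of them higher and 1 lower, and K36M against WT under Repsox called 2 higher and 2 lower. Des averaged 38.3 CPM in K36M with TGF-beta and 0.890 CPM in WT with TGF-beta. The 8 epithelial markers (Cdh1, Epcam and others) summed, in that order, to 3541 to 3648, 4515 to 4692, 106 to 147 and 1956 to 2048 CPM. TGF-beta against Repsox in K36M called 2 of them higher and 3 lower, and Epcam averaged 333 CPM with TGF-beta and 207 CPM with Repsox there. The 8 pluripotency markers (Nanog, Esrrb and others) summed to 786 to 791, 1214 to 1245, 22.0 to 31.5 and 865 to 1028 CPM, again in that order, and no smooth muscle, epithelial or pluripotency marker was at 0 in any group. The 4 chondrocyte markers summed to 40.1 to 43.5, 24.0 to 24.4, 206 to 322 and 17.8 to 21.5 CPM. The sum in WT with TGF-beta was mostly Col2a1 (255 CPM on average), whereas Acan (0.337 CPM) and Comp (0.0359 CPM) had their lowest averages there. TGF-beta against Repsox in WT called 2 of the 4 chondrocyte markers higher and 2 lower. The 4 adipocyte markers summed to 0 to 0.350, 23.0 to 24.8, 0.689 to 1.58 and 18.0 to 19.9 CPM. In the Repsox groups most of this was Pparg, which averaged 23.8 CPM in K36M and 17.4 CPM in WT. Endothelial markers (8 genes) summed to 89.5 to 89.9, 59.0 to 63.3, 120 to 121 and 48.2 to 49.1 CPM, and macrophage markers (8) to 35.6 to 40.9, 77.5 to 80.5, 32.9 to 33.3 and 29.7 CPM. Tek, at 118 CPM on average, carried the endothelial sum in WT with TGF-beta, where Pecam1 had its lowest average (0.359 CPM). Csf1r (47.5 CPM) and Cd68 (29.9 CPM) carried most of the macrophage sum in K36M with Repsox. Hepatocyte or yolk sac markers (7) summed to at most 5.33 CPM in any library. Serpina1b was at 0 in every library. Of the endothelial list, Erg and Emcn were at 0 in K36M with TGF-beta, Erg in K36M with Repsox, and Tie1, Cldn5 and Emcn in WT with TGF-beta. Of the adipocyte list, Fabp4 was at 0 in both TGF-beta groups, Plin1 in WT with TGF-beta, and Adipoq and Plin1 in K36M with Repsox. Of the macrophage list, Emr1 was at 0 in both K36M groups, Ptprc in K36M with Repsox and Aif1 in WT with Repsox. The part of these cell types in the results below was not tested, and in bulk RNA fewer cells of a type cannot be told apart from less RNA per cell.

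The binding protein genes fell into opposing sets between K36M and WT under TGF-beta and between media in WT. Under TGF-beta, Igfbp2, Igfbp4 and Igfbp6 were 23.5- to 59.8-fold higher in K36M than in WT, and Igfbp3, Igfbp5 and Igfbp7 were 9.89- to 236-fold lower. Under Repsox the second set was again lower in K36M, 18.3- to 34.1-fold, whereas Igfbp2 and Igfbp6 were 2.03- and 2.50-fold higher and Igfbp4 did not differ by the test. In WT cells TGF-beta went with less Igfbp2, Igfbp4 and Igfbp6 and with more Igfbp3, Igfbp5 and Igfbp7 than Repsox. In K36M cells the sets did not oppose each other between media. Igfbp2, Igfbp4, Igfbp3 and Igfbp7 were all higher there with TGF-beta, by log2 differences of 0.69, 1.26, 1.79 and 3.96. Igfbp6 was lower (-1.70), and Igfbp5 was not called. The receptor genes differed by at most 1.56-fold in every comparison, Igf1r with the second set and Igf2r in the opposite direction.

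Between K36M and WT under TGF-beta, all 8 tested genes were called (70.3% of all tested genes were), 4 of them higher (36.4%) and 4 lower (33.9%). Under Repsox 7 were called (55.8% of all tested genes), 3 higher (28.8%) and 4 lower (26.9%). For TGF-beta against Repsox, 7 were called in K36M (48.3%), 5 higher (24.7%) and 2 lower (23.6%), and all 8 in WT (62.4%), 4 higher (29.0%) and 4 lower (33.4%). Libraries of the compared groups did not overlap for 8 members in K36M against WT under TGF-beta (85.2% of all tested genes), 7 under Repsox (75.4%), 8 between media in K36M (75.1%) and 8 in WT (79.4%). Igf1r, Igfbp3, Igfbp5 and Igfbp7 were called lower in K36M in both media (17.6% of all tested genes) and Igf2r, Igfbp2 and Igfbp6 higher in both (18.7%). Igf1r, Igfbp3 and Igfbp7 were called higher under TGF-beta in both genotypes (11.7%), and Igf2r and Igfbp6 lower (11.9%). With calls this frequent among all genes, sizes are given beside the counts. The median absolute log2 difference of the 8 genes was 4.76 between K36M and WT under TGF-beta, 1.17 under Repsox, 0.98 between media in K36M and 3.14 between media in WT. Over all tested genes it was 0.79, 0.47, 0.42 and 0.62 in these comparisons. The members were chosen with earlier results of these data known, so this contrast describes them and is not a test.

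**Figure D1:**
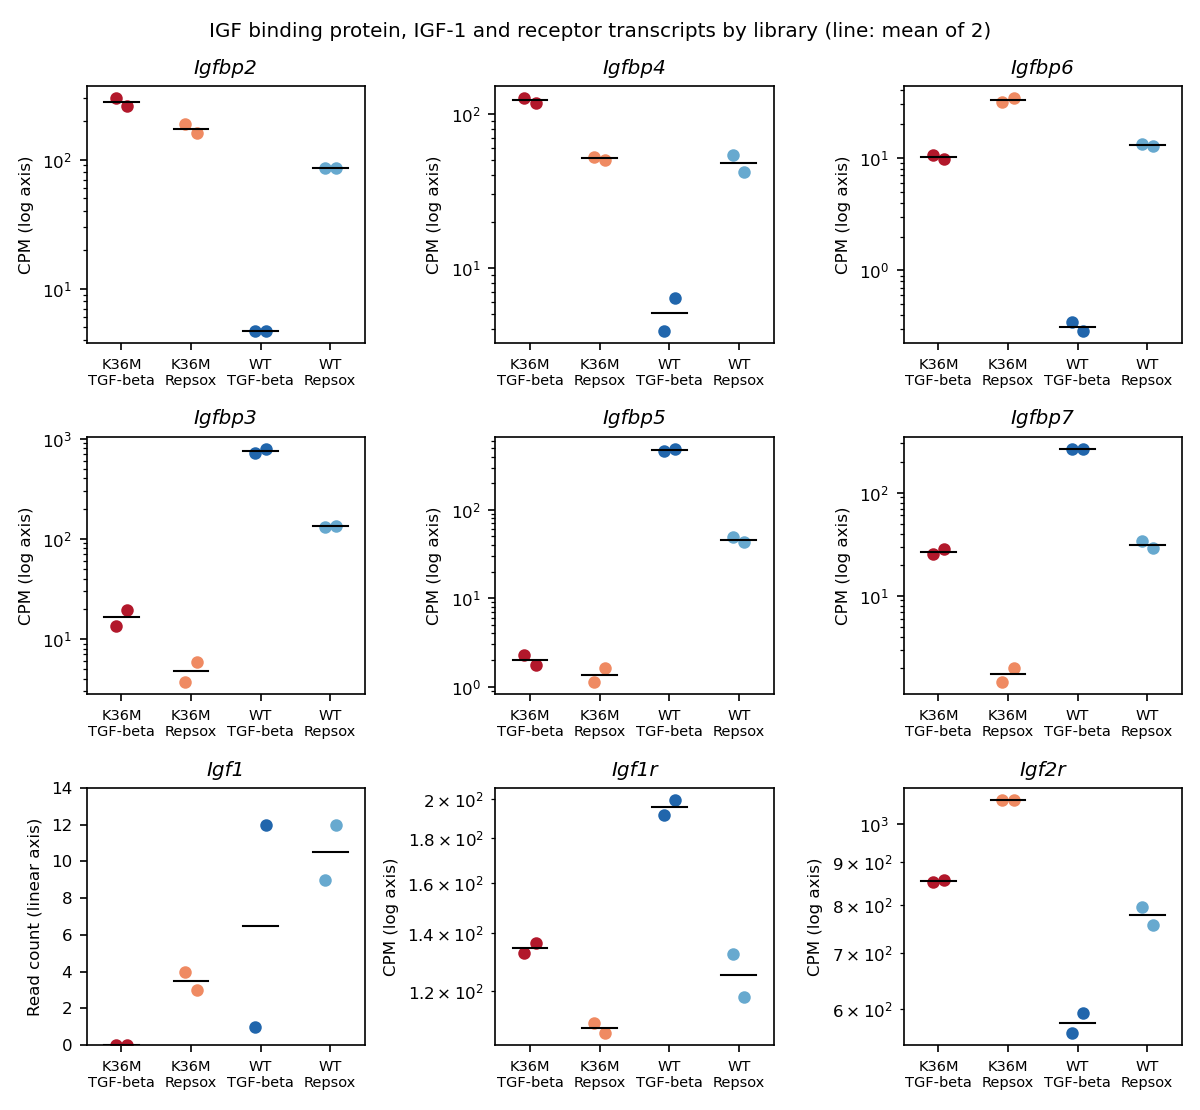
Level of each gene in each library (points, CPM on a log axis, and for Igf1 read counts on a linear axis; horizontal bars are group means of 2 libraries), with the 4 groups along the x axis. Igfbp2 and Igfbp4 had their lowest level in WT with TGF-beta (4.70 and 5.13 CPM on average), where Igfbp3 and Igfbp5 had their highest (755 and 478 CPM).

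Igfbp2 encodes a binding protein with a preference for IGF2 that is abundant in the early embryo. In K36M cells it had 301 and 261 CPM with TGF-beta and 188 and 160 CPM with Repsox. WT cells had 4.73 and 4.67 CPM with TGF-beta, against 85.2 and 86.1 CPM with Repsox. No library of one group overlapped another group. K36M was above WT by 5.90 ± 0.13 on the log2 scale under TGF-beta (adjusted p = 4.83e-20, edgeR) and by 1.02 ± 0.09 under Repsox (adjusted p = 2.54e-09, edgeR). TGF-beta against Repsox gave 0.69 ± 0.09 in K36M (adjusted p = 7.46e-07, edgeR) but -4.19 ± 0.13 in WT (adjusted p = 1.92e-17, edgeR), so the direction of the medium difference was opposite in the genotypes.

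Igfbp4 encodes a binding protein that is mainly inhibitory until it is cleaved by the protease PAPP-A. It had 127 and 118 CPM in K36M with TGF-beta and 52.6 and 50.2 CPM in K36M with Repsox. In WT it had 3.87 and 6.39 CPM with TGF-beta and 54.4 and 41.9 CPM with Repsox. The Repsox groups of the genotypes overlapped, and the difference between them was 0.09 ± 0.12 on the log2 scale (adjusted p = 0.544, edgeR); its sign depended on single libraries, with -0.08 without library 2 of WT with Repsox and 0.29 (adjusted p = 0.0356, edgeR) without library 1. Under TGF-beta K36M stood 4.55 ± 0.16 above WT (adjusted p = 6.37e-17, edgeR). The medium difference was 1.26 ± 0.12 in K36M (adjusted p = 6.47e-09, edgeR) and -3.21 ± 0.16 in WT (adjusted p = 9.26e-14, edgeR). Igfbp2 and Igfbp4 were the members called lower under TGF-beta in WT and higher in K36M, a combination found in 6.24% of all tested genes.

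Igfbp6, whose product binds IGF2 far more strongly than IGF1, had 10.5 and 9.70 CPM in K36M with TGF-beta and 31.4 and 34.3 CPM in K36M with Repsox. WT cells had 0.344 and 0.287 CPM with TGF-beta, which rests on 4 counts in each library, and 13.4 and 12.8 CPM with Repsox. The groups did not overlap. K36M was higher by 4.97 ± 0.31 under TGF-beta (adjusted p = 2.39e-12, edgeR) and by 1.32 ± 0.14 under Repsox (adjusted p = 5.26e-08, edgeR). Unlike Igfbp2 and Igfbp4, it was lower with TGF-beta than with Repsox in both genotypes, by a log2 difference of -1.70 ± 0.15 in K36M (adjusted p = 2.72e-09, edgeR) and -5.35 ± 0.29 in WT (adjusted p = 3.43e-13, edgeR).

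Igfbp3 encodes the main carrier of IGFs in serum, where it forms a complex with the acid-labile subunit. It had 13.4 and 19.4 CPM in K36M with TGF-beta and 3.69 and 5.87 CPM in K36M with Repsox. WT cells had 719 and 792 CPM with TGF-beta and 132 and 134 CPM with Repsox. Every K36M library was thus below every WT library, and every TGF-beta library above the Repsox libraries of its genotype. The log2 difference between K36M and WT was -5.54 ± 0.13 under TGF-beta (adjusted p = 1.38e-19, edgeR) and -4.82 ± 0.15 under Repsox (adjusted p = 5.01e-17, edgeR). TGF-beta exceeded Repsox by 1.79 ± 0.18 in K36M (adjusted p = 2.80e-08, edgeR) and by 2.51 ± 0.11 in WT (adjusted p = 3.44e-15, edgeR).

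Igfbp5, whose product also binds extracellular matrix, showed the greatest separation of the 8 genes. It had 2.27 and 1.75 CPM in K36M with TGF-beta and 1.12 and 1.61 CPM in K36M with Repsox, against 466 and 491 CPM in WT with TGF-beta and 48.9 and 43.1 CPM in WT with Repsox. The log2 difference between K36M and WT was -7.88 ± 0.14 under TGF-beta (adjusted p = 2.19e-21, edgeR), the 28th most negative of the 15789 tested genes, and -5.09 ± 0.16 under Repsox (adjusted p = 5.88e-17, edgeR). In WT TGF-beta exceeded Repsox by 3.38 ± 0.09 (adjusted p = 2.14e-18, edgeR). In K36M the libraries of the media did not overlap, but the difference of 0.59 ± 0.29 was not called (adjusted p = 0.104, edgeR).

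Igfbp7, whose product is deposited around blood vessels and binds IGFs weakly, had 25.2 and 28.3 CPM in K36M with TGF-beta and 1.45 and 2.01 CPM in K36M with Repsox. WT cells had 262 and 267 CPM with TGF-beta and 33.6 and 29.1 CPM with Repsox. K36M with TGF-beta was therefore close to, though below, WT with Repsox. K36M was lower than WT by a log2 difference of -3.31 ± 0.10 under TGF-beta (adjusted p = 6.94e-18, edgeR) and -4.20 ± 0.16 under Repsox (adjusted p = 2.20e-15, edgeR). TGF-beta exceeded Repsox by 3.96 ± 0.17 in K36M, or 15.6-fold, the 101st most positive difference of all tested genes (adjusted p = 1.63e-14, edgeR), and by 3.07 ± 0.10 in WT (adjusted p = 1.92e-17, edgeR). Its exons overlap those of Polr2b on the other strand by 85 bases, and the strand setting of the counting is not given in the sources used here.

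**Figure D2:**
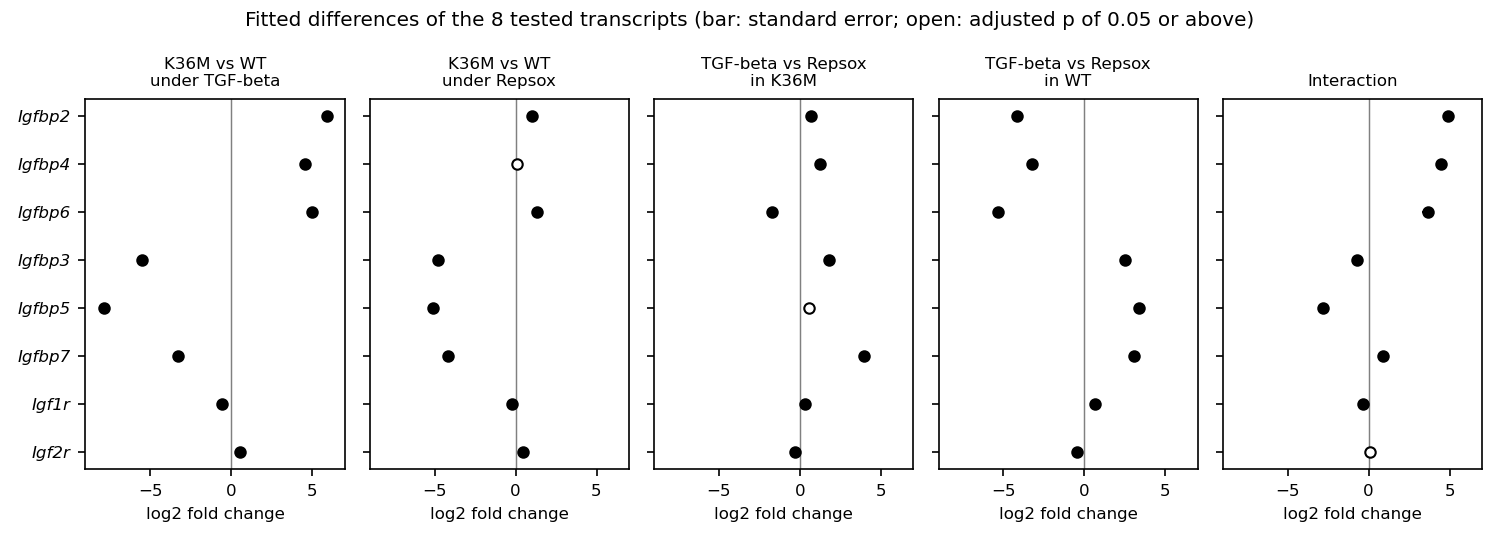
Fitted log2 fold change (x axis) of the 8 tested genes (y axis) in 4 comparisons and in the interaction, with bars for the standard error, most of them shorter than the points; open points had an adjusted p of 0.05 or above. Igfbp2, Igfbp4 and Igfbp6 lie right of 0 and Igfbp3, Igfbp5 and Igfbp7 left of it for K36M against WT under TGF-beta.

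Igfbp2 and Igfbp5, which moved in opposite directions between the genotypes, are neighbours. In the mm9 build Igfbp2 lies at chr1:72871077-72899048 on the plus strand and Igfbp5 at chr1:72904506-72921458 on the minus strand, so that their 3' ends face each other across 5458 bases. The ratio of Igfbp2 to Igfbp5 in CPM per kilobase of exon was 432 and 486 in K36M with TGF-beta and 546 and 323 in K36M with Repsox. In WT it was 0.0330 and 0.0309 with TGF-beta and 5.66 and 6.50 with Repsox. Igfbp3 (chr11:7106089-7113926, minus strand) likewise has a family member beside it, Igfbp1, 3540 bases away on the other strand, which had 2 counts over all 8 libraries. The other binding protein genes had no family member as nearest gene on either side: Igfbp4 at chr11:98902558-98913969, Igfbp6 at chr15:101974793-101979942 and Igfbp7 at chr5:77778265-77837070.

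The promoter windows of this neighbouring pair and of Igfbp3 are shown because these genes had the widest differences between K36M and WT under TGF-beta. Each window holds 250 bases before and 50 bases after a RefSeq start site (RefSeq table of build GRCm38.p6, in which 9 of 9 members had a window); each sequence was found exactly once in mm9, whose coordinates are given. Igfbp2 has 2 start sites in the table. Capitals mark matches on either strand to CAGAC (Smad box), TGANTCA (AP-1 site), CACCTG (E2 box) or GGAATG (TEAD site). All sequences run 5' to 3' on the strand of the gene.
Igfbp2, first window, chr1:72870804-72871103, plus strand: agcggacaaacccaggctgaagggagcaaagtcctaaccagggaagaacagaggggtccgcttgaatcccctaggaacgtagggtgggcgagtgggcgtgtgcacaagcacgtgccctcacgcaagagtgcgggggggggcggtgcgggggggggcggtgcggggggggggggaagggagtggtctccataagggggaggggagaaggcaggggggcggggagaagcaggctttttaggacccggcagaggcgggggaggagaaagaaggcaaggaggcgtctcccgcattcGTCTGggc
Igfbp2, second window, chr1:72871711-72872010, plus strand: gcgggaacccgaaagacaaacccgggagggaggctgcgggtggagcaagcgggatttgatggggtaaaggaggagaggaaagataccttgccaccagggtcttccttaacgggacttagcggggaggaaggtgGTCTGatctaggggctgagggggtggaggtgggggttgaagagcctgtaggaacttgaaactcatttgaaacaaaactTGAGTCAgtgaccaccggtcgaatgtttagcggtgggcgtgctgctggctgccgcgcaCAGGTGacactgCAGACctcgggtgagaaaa
Igfbp5, chr1:72921390-72921689, minus strand: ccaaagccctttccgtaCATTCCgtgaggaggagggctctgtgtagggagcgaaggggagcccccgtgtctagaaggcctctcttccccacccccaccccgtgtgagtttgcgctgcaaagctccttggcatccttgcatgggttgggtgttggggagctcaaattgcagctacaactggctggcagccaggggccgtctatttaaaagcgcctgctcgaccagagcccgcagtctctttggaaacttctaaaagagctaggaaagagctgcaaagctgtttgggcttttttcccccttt
Igfbp3, chr11:7113877-7114176, minus strand: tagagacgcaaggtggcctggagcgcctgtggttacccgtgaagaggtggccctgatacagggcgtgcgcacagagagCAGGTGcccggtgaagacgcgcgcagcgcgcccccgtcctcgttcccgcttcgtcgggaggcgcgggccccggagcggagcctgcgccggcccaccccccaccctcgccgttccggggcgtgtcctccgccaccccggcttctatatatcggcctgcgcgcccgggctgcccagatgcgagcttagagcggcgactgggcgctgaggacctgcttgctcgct
The second Igfbp2 window held 2 Smad boxes, an AP-1 site 39 bases before the start site and an E2 box 19 bases after it, and the first window held 1 Smad box. The Igfbp5 window held 1 TEAD site, 233 bases before the start site, and none of the other motifs, while the Igfbp3 window held 1 E2 box 172 bases before it. Of all 32851 windows in the table, 49.6% held a Smad box, 7.81% an AP-1 site, 20.2% an E2 box and 14.7% a TEAD site. These are letter matches, not observed binding.

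Because CPM per kilobase of exon allows levels of different genes to be set side by side, the make-up of the Igfbp pool was computed from it for each library. In K36M with TGF-beta, Igfbp2 made up 64.7% and 61.5% of the summed Igfbp level and Igfbp4 21.4% and 21.8%. K36M with Repsox was similar in its Igfbp2 share (65.7% and 60.7%), with Igfbp6 at 18.3% and 21.7%. The pool of WT cells with TGF-beta was almost wholly Igfbp3 (43.5% and 45.2%), Igfbp7 (41.0% and 39.2%) and Igfbp5 (14.7% and 14.6%). In WT with Repsox no single gene dominated: Igfbp2 took 29.0% and 31.1%, Igfbp3 26.4% and 28.5%, and Igfbp7 17.4% and 16.0%. Igfbp3, Igfbp5 and Igfbp7 together held 10.1% and 13.0% of the pool in K36M with TGF-beta, 1.65% and 2.67% in K36M with Repsox, 99.1% and 99.0% in WT with TGF-beta and 49.0% and 49.3% in WT with Repsox. The summed level was 252 and 230 CPM per kilobase in K36M with TGF-beta, 155 and 142 in K36M with Repsox, 528 and 560 in WT with TGF-beta and 159 and 150 in WT with Repsox. The sums of the Repsox groups overlapped while their compositions differed. These shares depend on the exon lengths of the GENCODE vM1 annotation and were not tested.

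**Figure D3:**
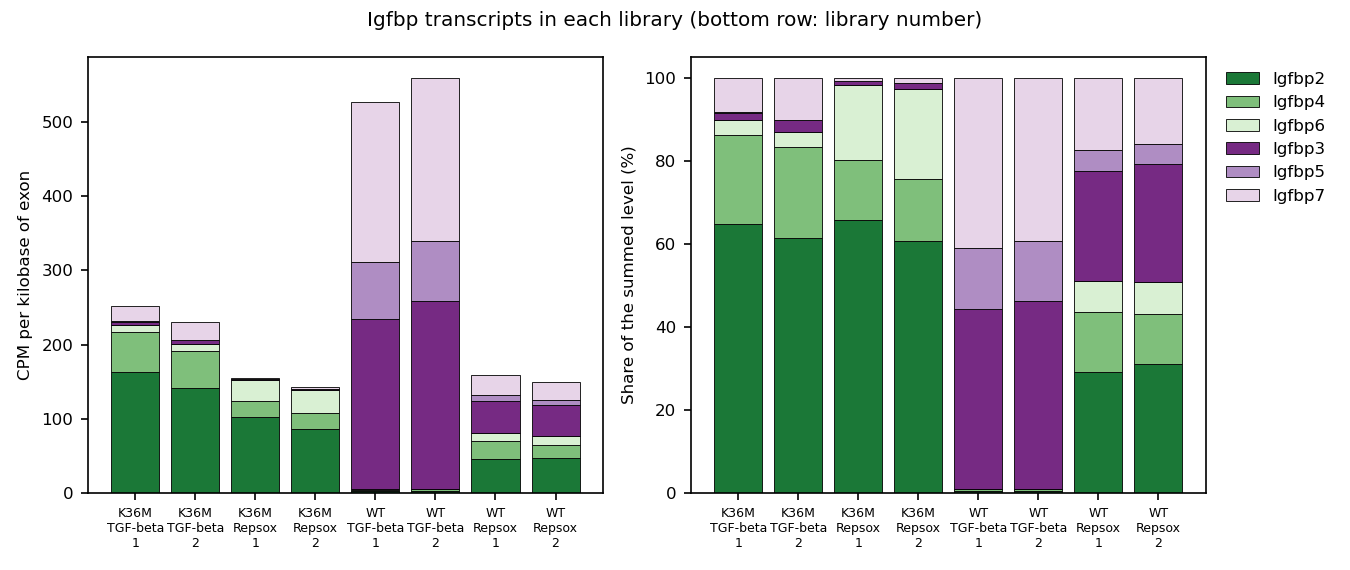
Summed level of the 6 Igfbp genes in each library (left, CPM per kilobase of exon) and the share of each gene in that sum (right, percent); bars are single libraries, colours are genes. Igfbp2 is the greatest share in the 4 K36M libraries (60.7% to 65.7%) and under 0.5% in WT with TGF-beta.

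Of the ligands, Igf1 was scarcely detected. It had 0 and 0 counts in K36M with TGF-beta, 4 and 3 in K36M with Repsox, 1 and 12 in WT with TGF-beta and 9 and 12 in WT with Repsox. WT with TGF-beta overlapped both Repsox groups, and K36M with TGF-beta overlapped none. If 3 counts over the group are taken as the limit that a count of 0 allows, the 13 counts of WT with TGF-beta were 4.11-fold above it. The exact 95% interval of the ratio, for counting error only, reached down to 2.89. These values rest on library 2 of WT with TGF-beta, which holds 12 of the 13 counts. Library 1 alone, with 1 count, is under the limit of 3 counts and gives no fold. Under Repsox the group sums were 7 counts in K36M and 21 in WT, and the ratio of WT over K36M, scaled for depth, was 2.95 (exact 95% interval 1.21 to 8.22, for counting error only). In the edgeR fit without the filter, Igf1 in K36M against WT was not called under Repsox (-1.58, adjusted p = 0.217, edgeR). It was called under TGF-beta (-5.74, adjusted p = 0.00640, edgeR), where the WT counts rest on library 2. Between media Igf1 was not called in WT (-0.62, adjusted p = 0.656, edgeR) or in K36M (-4.77, adjusted p = 0.0684, edgeR). Igf2, the ligand named with the wider IGF system, was far more abundant and changed with both genotype and medium. It had 650 and 575 CPM in K36M with TGF-beta, 3866 and 3809 CPM in K36M with Repsox, 3.10 and 13.4 CPM in WT with TGF-beta and 1269 and 1191 CPM in WT with Repsox. TGF-beta against Repsox gave a log2 difference of -2.65 ± 0.17 in K36M (adjusted p = 1.04e-11, edgeR) and -7.16 ± 0.23 in WT (adjusted p = 2.62e-17, edgeR). The 2 WT libraries with TGF-beta were far apart: without library 1 the WT value was -6.52 and without library 2 it was -8.63. The ratio of Igf2 to the summed Igfbp genes, both in CPM per kilobase, was 0.469 and 0.455 in K36M with TGF-beta, 4.55 and 4.87 in K36M with Repsox, 0.00107 and 0.00434 in WT with TGF-beta and 1.45 in both WT libraries with Repsox.

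The receptor genes changed little. Igf1r (chr7:75097713-75371484) had 133 and 136 CPM in K36M with TGF-beta, 110 and 107 CPM in K36M with Repsox, 192 and 199 CPM in WT with TGF-beta and 133 and 118 CPM in WT with Repsox. Its K36M against WT difference was -0.54 ± 0.08 under TGF-beta (adjusted p = 2.98e-06, edgeR). Under Repsox it was -0.21 ± 0.08 (adjusted p = 0.0354, edgeR), a call that was lost on leaving out any of 7 of the 8 libraries (adjusted p 0.0505 to 0.213) and fell to -0.12 without library 1 of WT with Repsox. TGF-beta exceeded Repsox by 0.31 ± 0.08 in K36M (adjusted p = 0.00312, edgeR) and by 0.64 ± 0.08 in WT (adjusted p = 2.88e-07, edgeR).

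Igf2r (chr17:12875272-12962530, minus strand), which is expressed from the maternal allele in most mouse tissues, had 851 and 857 CPM in K36M with TGF-beta and 1067 and 1068 CPM in K36M with Repsox. WT cells had 561 and 593 CPM with TGF-beta and 796 and 757 CPM with Repsox. The 4 groups were separate, in an order that put K36M with Repsox first and WT with TGF-beta last. K36M was higher by 0.57 ± 0.06 under TGF-beta (adjusted p = 1.47e-08, edgeR) and by 0.46 ± 0.06 under Repsox (adjusted p = 6.52e-07, edgeR). The medium difference was -0.32 ± 0.06 in K36M (adjusted p = 8.54e-05, edgeR) and -0.43 ± 0.06 in WT (adjusted p = 1.26e-06, edgeR). The Igf2r to Igf1r ratio per kilobase was 3.04 and 2.98 in K36M with TGF-beta, 4.60 and 4.73 in K36M with Repsox, 1.39 and 1.41 in WT with TGF-beta and 2.85 and 3.05 in WT with Repsox. Airn, the imprinted non-coding RNA that overlaps Igf2r by 28354 bases on the other strand without sharing exon sequence, was also higher in K36M, by 1.70 ± 0.17 under TGF-beta (adjusted p = 8.38e-09, edgeR) and 1.02 ± 0.15 under Repsox (adjusted p = 7.11e-06, edgeR). The strand setting of the counting is not known, so reads of the opposite strand in either gene cannot be told apart.

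The medium difference itself was compared between the genotypes with the interaction term, TGF-beta against Repsox in K36M minus the same in WT. It was called for 7 members (51.0% of all tested genes), higher for 4 (28.5%) and lower for 3 (22.6%). Igfbp2, Igfbp4 and Igfbp6 had interactions of 4.88 ± 0.16 (adjusted p = 3.05e-16), 4.46 ± 0.20 (adjusted p = 5.24e-14) and 3.65 ± 0.38 (adjusted p = 4.56e-08) in the edgeR test, so their WT decrease under TGF-beta was smaller or turned round in K36M. Igfbp5 had -2.79 ± 0.33 (adjusted p = 2.39e-07, edgeR), its WT increase being greater than the K36M value. The interactions of Igfbp3 (-0.72 ± 0.22, adjusted p = 0.00946, edgeR), Igfbp7 (0.89 ± 0.22, adjusted p = 0.00200, edgeR) and Igf1r (-0.33 ± 0.11, adjusted p = 0.0172, edgeR) were smaller and each was lost in at least 1 alternative. For Igfbp3 the value was -0.37 (adjusted p = 0.258, edgeR) without library 2 of K36M with Repsox and -0.46 (adjusted p = 0.0787, edgeR) without library 1 of K36M with TGF-beta. For Igfbp7 it was 0.65 (adjusted p = 0.0711, edgeR) without library 1 of K36M with Repsox. Igf2r, at 0.11 ± 0.08, was not called (adjusted p = 0.295, edgeR).

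**Figure D4:**
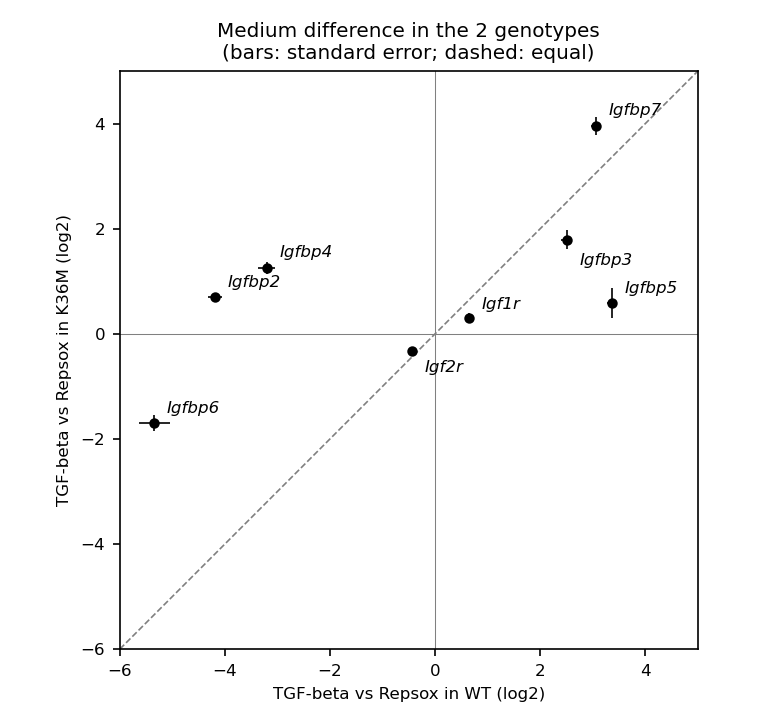
Log2 difference of TGF-beta against Repsox in K36M (y axis) and in WT (x axis) for the 8 tested genes, with standard errors as bars and the dashed line marking equal differences. Igfbp2 (0.69 in K36M, -4.19 in WT) and Igfbp4 (1.26 in K36M, -3.21 in WT) lie far above the line and Igfbp5 (0.59 in K36M, 3.38 in WT) below it.

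Beyond the members, a list of 60 genes of the IGF system was examined, of which 54 were tested. K36M against WT called 19 higher and 29 lower under TGF-beta, beside 36.4% and 33.9% of all tested genes, with a median log2 difference of -0.22 against 0.05 over all tested genes. Under Repsox it called 18 higher and 24 lower, beside 28.8% and 26.9% of all genes (median -0.10 against 0.04). TGF-beta against Repsox called 20 higher and 14 lower in K36M, beside 24.7% and 23.6% of all genes (median 0.15 against 0.01). In WT it called 24 higher and 20 lower, beside 29.0% and 33.4% (median 0.06 against -0.07). Among 9 proteases and protease inhibitors that act on binding proteins, Pappa, which encodes the protease PAPP-A that cleaves the products of Igfbp4 and Igfbp5, had 3.75 and 5.16 CPM in K36M with TGF-beta and 0.527 and 1.61 CPM in K36M with Repsox. WT cells had 274 and 309 CPM of Pappa with TGF-beta and 33.8 and 32.5 CPM with Repsox. The groups of Pappa did not overlap, in the same order as those of Igfbp3. Pappa was lower in K36M by a log2 difference of -6.04 ± 0.15 under TGF-beta (adjusted p = 3.87e-19, edgeR) and -5.02 ± 0.22 under Repsox (adjusted p = 1.11e-14, edgeR); the Repsox value was -4.36 without library 1 of K36M with Repsox and -5.95 without library 2. Stc1, encoding a stanniocalcin that inhibits PAPP-A, was high in WT with Repsox alone (35.3 and 51.7 CPM, against 0.885 to 2.42 CPM in the other 6 libraries). Its relative Stc2 was lower in K36M by log2 differences of -1.17 under TGF-beta and -1.85 under Repsox. Adam12, encoding a metalloprotease that cleaves the products of Igfbp3 and Igfbp5, was lower in K36M by log2 differences of -3.90 under TGF-beta and -3.31 under Repsox, the second being -4.01 without library 2 of K36M with Repsox. Htra1, a secreted serine protease, was higher by 0.42 and 0.59. Plau, the urokinase gene, was lower in K36M under Repsox by -2.20. Pappa2, a relative of Pappa, had 5 and 9 counts in K36M with TGF-beta, 13 and 8 in K36M with Repsox, 2 and 0 in WT with TGF-beta and 2 and 0 in WT with Repsox. Mmp3 had 0 counts in the 4 K36M libraries, 0 and 1 in WT with TGF-beta and 61 and 103 in WT with Repsox.

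Of the related proteins, Ctgf and Cyr61, matrix-associated targets of TGF-beta and Yap, were called lower in K36M in both media and higher with TGF-beta in both genotypes. Ctgf differed by -3.75 ± 0.09 between K36M and WT under TGF-beta (adjusted p = 8.56e-20, edgeR) and by -0.75 ± 0.10 under Repsox (adjusted p = 9.37e-07, edgeR). Crim1, a membrane protein with an IGFBP-like domain, differed by -1.66 and -1.12 in these comparisons. Igfals, which encodes the acid-labile subunit, was instead higher in K36M, by 2.91 under TGF-beta (3.88 without library 2 of WT with TGF-beta) and 2.15 under Repsox. Esm1, Kazald1, Nov, Htra3 and Igfbpl1 averaged at most 6.32 CPM in any group. Nov had 2 counts in K36M with TGF-beta and 7 in K36M with Repsox, against 23 in WT with TGF-beta and 178 in WT with Repsox, summed over the libraries of a group. M6pr, the smaller receptor for mannose 6-phosphate, was lower in K36M under TGF-beta by -0.49. The insulin receptor gene Insr was called in all 4 comparisons with differences of at most 0.79. Its calls for K36M against WT under TGF-beta (-0.21) and for TGF-beta against Repsox in K36M (0.23) were each lost without any of 3 libraries (adjusted p 0.0682 to 0.264). The first was also lost with upper-quartile factors (-0.09, adjusted p = 0.358, edgeR). Igf2bp1, whose product binds Igf2 mRNA, was higher in K36M by 3.18 ± 0.07 under TGF-beta (adjusted p = 8.36e-20, edgeR) and by 0.67 ± 0.06 under Repsox (adjusted p = 8.93e-09, edgeR). Igf2bp2 and Igf2bp3 were also called higher in K36M in both media. Ins2, Insrr, Igfbp1 and Adam28 had at most 10 counts in any group and were not tested.

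**Figure D5:**
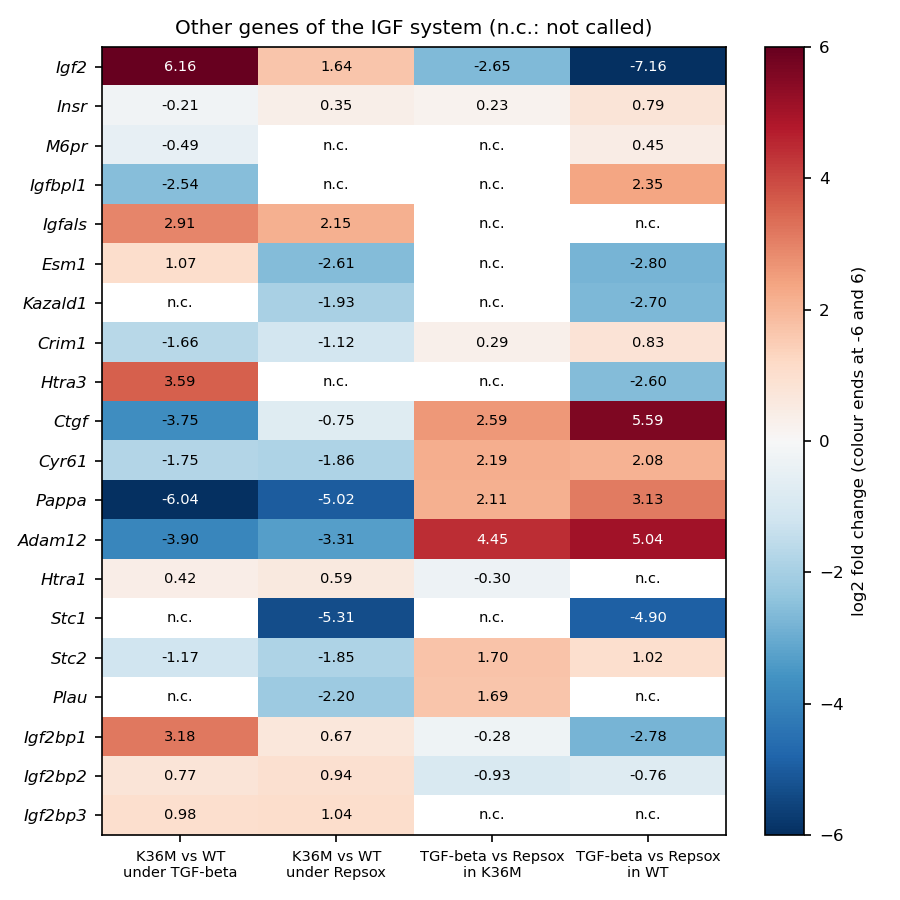
Log2 fold change (colour and printed value) of other genes of the IGF system (y axis) in 4 comparisons (x axis). Drawn are tested genes of the ligand, receptor, related-protein, protease and Igf2 mRNA-binding lists. The adaptor list and the PI3-kinase, Akt and FoxO list are not drawn. The mark n.c. stands for values that were not called, and genes with 3 or fewer counts in any group are left out. Pappa, Ctgf and Cyr61 are lower in both K36M against WT columns, and Igf2, Igfals and Igf2bp1 are higher.

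The genes most like each member were found by Euclidean distance between centred log2 CPM values over the 8 libraries, among annotated genes with an average log2 CPM of at least 2. The libraries are 4 groups of 2, so that likeness mostly reflects the order of 4 group means. Pappa was the gene closest to Igfbp3 (distance 0.96, Pearson's r 0.997 over 8 libraries). Igfbp2 lay closest to Bcam (0.58), Igfbp4 to Tnfrsf19 (0.51), Igfbp6 to Dusp9 (0.50) and Igfbp7 to Hoxa5 (0.80). Igfbp5 had its nearest gene, Frem1, at 1.49. For the receptors the nearest genes were Nisch for Igf1r (0.09) and Iws1 for Igf2r (0.12).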

How the data were processed

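RNA was depleted of ribosomal RNA and sequenced, per the labels' protocols. The deposited values are whole-number read counts per gene for 8 libraries; the authors used STAR 2.5.0, HTSeq 0.11.2 and edgeR with the mm9 build, per the submitters' processing notes. The annotation, strand setting and filters are not given in the sources used here. Groups were taken from the labels. The members and gene lists were chosen with earlier results of these data known.

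Counts were analysed in R 4.3.3 with edgeR 4.0.16 (TMM factors of 0.894 to 1.06, filterByExpr, quasi-likelihood F test on 4 group means over 8 libraries, Benjamini-Hochberg over 15789 genes, common biological coefficient of variation 0.0702). The test was also run on simulated counts, and the outcome of that run is not reported here. Alternatives were RLE and upper-quartile factors, DESeq2 1.42.0, no filter, a replicate block, the libraries of a comparison alone and each library left out. Exon lengths and coordinates came from GENCODE vM1 on mm9, to which 26763 of 26930 gene identifiers matched. Igf1, below the filter, is described by counts with exact Poisson intervals and a floor of 3 counts. All members are named in every comparison, as are genes of the ligand, receptor, related-protein, protease and neighbour lists, and the 2 called genes of smallest adjusted p in each other list; 1 gene of the neighbour list is not reported here.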

Additional observations from a re-analysis of the deposited data

Results flagged for a closer look

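The difference between TGF-beta and Repsox itself differed between K36M and WT cells, by the interaction term of the edgeR test, for 7 of the 8 tested members. The interaction on the log2 scale (K36M minus WT) was 4.88 for Igfbp2, 4.46 for Igfbp4, 3.65 for Igfbp6 and 0.89 for Igfbp7, and it was -2.79 for Igfbp5, -0.72 for Igfbp3 and -0.33 for Igf1r. An interaction was called for 51.0% of all tested genes. Igfbp2 and Igfbp4 were the members in which the medium difference was called with opposite signs in the genotypes.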

How the results depend on the processing

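Of 552 recalculated member values, 534 kept their direction and their side of the threshold, 15 lost the call, 2 gained one and 1 changed sign. The change of sign was Igfbp4 in K36M against WT under Repsox, which was -0.077 without library 2 of WT with Repsox. The gains were the same Igfbp4 value without library 1 (0.29) and the Igf2r interaction under upper-quartile factors (0.23, adjusted p = 0.0201, edgeR). Losses concerned Igf1r in K36M against WT under Repsox and the interactions of Igfbp3, Igfbp7 and Igf1r; the Igfbp3 interaction was also lost with DESeq2 (adjusted p = 0.123) and that of Igf1r with upper-quartile factors (adjusted p = 0.108, edgeR). Members called lower in the interaction numbered 3, and 1 to 3 when each library was left out. Upper-quartile factors moved the median of all genes in K36M against WT under TGF-beta to 0.17, against 0.05 with TMM. The replicate numbers do not pair the libraries (correlations -0.020 to 0.032); with a replicate block 3 members were again called lower in the interaction and no member call changed. The nearest genes depend on the measure: by Pearson's r 7 of 8 members shared none of their 3 nearest genes. The causes of these shifts were not tested. Depth limits Igf1 (at most 12 counts a library) and Igfbp6 in WT with TGF-beta (4 counts a library). Counts were also low for Igfbp5 in K36M (29 and 20 with TGF-beta, 17 and 20 with Repsox). The same holds for Igfbp7 in K36M with Repsox (22 and 25 counts).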

Other observations

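Downstream of the receptors, the adaptor gene Irs1 was lower in K36M by a log2 difference of -1.42 under TGF-beta (adjusted p = 9.85e-12, edgeR) and -1.77 under Repsox (adjusted p = 2.26e-12, edgeR). Pik3r1, a regulatory subunit of PI3-kinase, was lower by -2.85 and -2.66 in the same comparisons (adjusted p = 2.24e-16 and 2.51e-15, edgeR). Pik3r3, another regulatory subunit, differed by -3.31 under TGF-beta (adjusted p = 5.61e-18, edgeR). Among 12 tested adaptor genes K36M had 5 called higher and 7 called lower than WT with TGF-beta, and 5 and 6 with Repsox. Over all tested genes, 36.4% were called higher and 33.9% lower with TGF-beta, and 28.8% and 26.9% with Repsox. Arrb1 (2.29 with TGF-beta) and Gab1 (1.21 with Repsox) were among the higher ones. TGF-beta against Repsox gave 0.66 for Grb10 and 0.55 for Nedd4 in K36M, and 2.29 for Grb14 and 0.54 for Nedd4 in WT. The PI3-kinase, Akt and FoxO list of 19 genes had 5 called higher and 12 called lower in K36M than in WT with TGF-beta, and 5 and 6 with Repsox, to be read against the same shares of all genes. Between media, Akt1 differed by -1.36 and Foxo1 by 0.91 in K36M, and Pik3r3 by 1.59 and Pik3r2 by 1.07 in WT. Foxo4 was among the higher ones under Repsox, by 1.78 (adjusted p = 1.58e-13, edgeR).

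Near Igf2r, the transporter gene Slc22a3, which is imprinted in the mouse placenta, had 1.80 and 3.06 CPM in K36M with TGF-beta and 74.1 and 66.7 CPM in K36M with Repsox. In WT it had 0 and 4 counts with TGF-beta, against 578 and 647 counts with Repsox. It was lower with TGF-beta in both genotypes, by a log2 difference of -4.87 in K36M, whereas Igf2r differed by -0.32 in the same comparison. H19, the non-coding neighbour of Igf2, had 2675 and 2410 CPM in K36M with TGF-beta and 11993 and 11231 CPM in K36M with Repsox, against 8.09 and 30.2 CPM in WT with TGF-beta and 3162 and 2772 CPM in WT with Repsox. Mas1 and Pmch had at most 45 counts summed over the libraries of a group. Slc22a2 had 0 counts in every library.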
